A study of Arabidopsis thaliana with 36 samples.

Results

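The expansin superfamily was followed across 12 groups of Arabidopsis thaliana RNA-seq libraries. Its members were the genes of the deposited table whose annotation contains the word expansin in any case, and 34 of 27444 genes met that rule. They were 24 alpha-expansins (EXPA), 6 beta-expansins (EXPB), 3 genes of the expansin-like A group (EXLA) and 1 of the expansin-like B group (EXLB). AT2G37640, which RefSeq names as an expansin and the table annotates by its Barwin-like domain, fell outside the rule and was not counted.

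Expansins are secreted proteins that loosen the plant cell wall at acidic pH without cutting its polymers, and so allow a cell under turgor to enlarge. Alpha-expansins and beta-expansins have shown this activity, whereas the expansin-like proteins share their domains and have no established wall-loosening activity. In roots, expansins are known from elongating cells, from root hairs and from tissue through which lateral roots emerge, and low phosphate is known to change the growth of all of these.

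The 3 genotypes were grown in hydroponic culture with 200 µM phosphate (Pi) for 4 weeks and then kept for 24 h at 0 µM or at 200 µM Pi. They were a T-DNA knockout of PPSR1 (KO), plants that overexpress AtPPSR1 (OE) and the wild type Columbia-0 (WT). What drives the transgene, how many lines were used and how many plants made a library are not given in the sources at hand. Mature rosette leaves and roots were harvested separately, and each of the 12 combinations of genotype, Pi supply and organ had 3 libraries, which the labels call independent biological replicates.

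Values are FPKM, the reads of a gene divided by its coding length and by the depth of its library, and group values are mean ± SD (n = 3). Each change is a difference in log2(FPKM + 1), given with its standard error (SE), and understates the change of genes at low FPKM. A member was called at an adjusted p under 0.05 from limma with Benjamini-Hochberg adjustment over all genes of the fit. Genes averaging 1 FPKM or more in an organ were tested, 16489 in leaf and 19166 in root. Of the 34 members, 17 passed this filter in leaf and 22 in root, 15 of them in both organs, 7 in root only and 2 in leaf only, while 10 passed in neither.

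Recovered depth was 6680000 to 13200000 reads per leaf library and 2070000 to 11800000 per root library. The organ labels held for the defining markers: 6 photosynthesis genes summed to 313.4 to 1399 FPKM in root and to 39630 to 83170 FPKM in leaf, and 4 endodermis genes to 321.7 to 830.9 FPKM in root and 0 to 6.91 in leaf. The first KO leaf library at 200 µM had the most genes at 0, 9488, against 7353 to 8551 in the other leaf libraries. Genes with coding sequences over 4000 bases read low in WT leaf replicate 2 at 200 µM (median -1.25 on the log2 scale), OE leaf replicate 1 at 0 µM (-1.04), WT leaf replicate 1 at 0 µM (-0.88) and WT root replicate 2 at 200 µM (-1.23). The targeted gene PPSR1 was not analysed here, so its level did not check the genotype labels.

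EXPA7 and EXPA18 are the expansins known from root hairs, and their promoters are shown because both carry the root hair element, the recognition sequence of the hair regulator RSL4 and its relatives. The sequences are the 300 bases before the RefSeq gene start in the assembly TAIR10.1, 5′ to 3′ on the gene's strand, with the element in capitals. EXPA7 (AT1G12560) lies on the plus strand with its promoter at chr1:4276205-4276504, and EXPA18 (AT1G62980) on the plus strand with its promoter at chr1:23331263-23331562.
EXPA7: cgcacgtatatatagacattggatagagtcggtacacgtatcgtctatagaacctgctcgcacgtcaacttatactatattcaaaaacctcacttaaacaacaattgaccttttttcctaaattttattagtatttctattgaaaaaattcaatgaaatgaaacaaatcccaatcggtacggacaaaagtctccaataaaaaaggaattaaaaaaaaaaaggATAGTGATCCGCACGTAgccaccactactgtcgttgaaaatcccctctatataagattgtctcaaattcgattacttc
EXPA18: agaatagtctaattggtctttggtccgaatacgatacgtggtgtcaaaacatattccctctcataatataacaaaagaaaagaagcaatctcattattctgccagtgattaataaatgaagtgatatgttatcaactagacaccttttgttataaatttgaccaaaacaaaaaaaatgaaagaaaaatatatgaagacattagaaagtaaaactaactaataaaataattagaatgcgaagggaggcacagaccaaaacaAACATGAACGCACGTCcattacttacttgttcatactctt

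The element, searched on both strands in 2 forms that differ by 1 base in length, began 78 bases before the start of EXPA7 and 40 bases before that of EXPA18. Either form was present in 2 of the 34 members' promoters and in 251 of 27443 promoters of the annotation (0.915%). These 2, EXPA7 and EXPA18, were shown for carrying the element, so the count is no test of enrichment. The other motifs searched on both strands of the same windows were the Pi starvation motif P1BS (GNATATNC), the G-box (CACGTG), the evening element (AAAATATCT), the W-box core (TTGACC) and the auxin response motif (TGTCTC). P1BS was in 1 member, EXPA8, and in 6.504% of all promoters. The G-box was in 2 members, EXPB2 and EXPA2, and in 7.09% of all promoters. The evening element was in 0 members and in 2.79% of promoters, the auxin motif in 4 members and 13.0%, and the W-box core in 9 members and 14.01%. The root hair element and the G-box share the letters CACG and can overlap. A match describes the letters in this window and was not tested as a binding site.

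Root and leaf used different sets of expansins. In root, EXPA4 was the most abundant member with a mean of 687.5 FPKM over 18 libraries, 32.7% of the family's summed FPKM, and EXPB3 followed with 465.1 FPKM and 22.1%. In leaf, EXPA1 led with 612.3 FPKM and 45.0% of the sum, and EXPA8 followed with 262.5 FPKM and 19.3%. The 5 most abundant members made up 74.8% of the sum in root (EXPA4, EXPB3, EXLB1, EXPA15 and EXPA1) and 81.7% in leaf (EXPA1, EXPA8, EXPA6, EXPA5 and EXPA11). EXPA1, a gene also known from guard cells, and no other member was among the 5 highest of both organs.

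**Figure D1:**
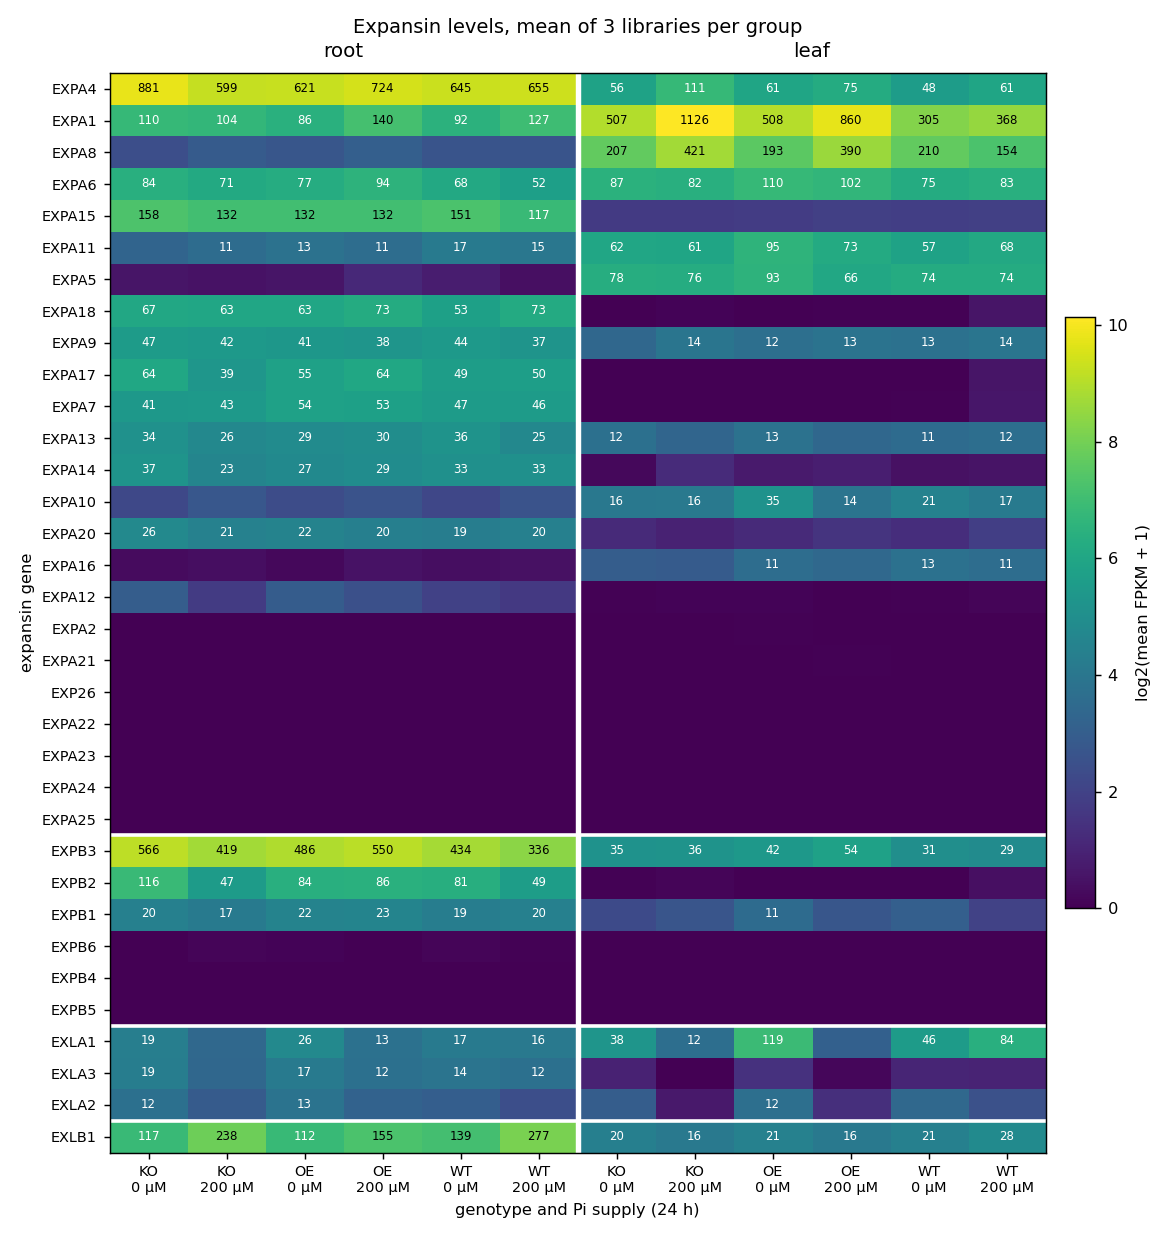
Mean level of each of the 34 expansins (rows, by subfamily) in the 12 groups (columns, root left and leaf right), as log2 of mean FPKM + 1 in colour, with the mean FPKM printed in cells of at least 10 FPKM. EXPA4 and EXPB3 are brightest in root and EXPA1 and EXPA8 in leaf, and the 10 members that passed the filter in neither organ stay dark in all groups.

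The 10 silent or nearly silent members were 7 EXPA and 3 EXPB genes. Of these, 7 were listed at 0 in all 36 libraries: EXPB4, EXPB5, EXPA22, EXPA23, EXPA24, EXPA25 and AT5G39290 (RefSeq EXP26). EXPA2, known from germinating seeds, and EXPA21 reached 1 read in a leaf library, and EXPB6 reached 1 read in 4 root libraries. EXPA21, EXPA22, EXPA23, EXP26, EXPA25 and EXPA24 lie next to each other on chromosome 5 with 386 to 4003 bases between neighbours. The coding sequences of EXPA22, EXPA23, EXP26 and EXPA25 share 53.7% to 67.3% of their 31-base words with each other, so a value of 0 in these is uncertain because how shared reads were handled is not stated in the sources at hand. EXPB6 lies 201 bases from EXPB2, which averaged 77.2 FPKM in root.

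WT root was compared with WT leaf at each Pi supply to show the organ pattern of the family. Of 24 members tested, 15 were higher in root and 7 higher in leaf, the same genes at 0 µM and at 200 µM. This fit took genes averaging 1 FPKM or more over all 36 libraries. Of the 24, 7 averaged that much in root only and 2 in leaf only, so their direction followed largely from the filter. Over all 19327 genes 73.4% were called at 0 µM and 69.7% at 200 µM, so a call by itself is common in this comparison. By direction, 56.1% of genes were higher in root and 17.3% higher in leaf at 0 µM, and 51.3% and 18.5% at 200 µM. The median member change was 1.88 at 0 µM and 1.99 at 200 µM, against 0.79 and 0.67 for all genes. With libraries rescaled by median-of-ratios size factors, the all-gene medians were 0.159 and 0.209, and 14 members were higher in root and 8 in leaf at 0 µM, 15 and 8 at 200 µM.

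The 5 largest differences toward root belonged to EXPA18, EXPB2, EXPA17, EXPA7 and EXPA15. EXPA18 had 41.9, 41.3 and 76.0 FPKM in WT root at 0 µM and 61.1, 81.0 and 76.6 at 200 µM, against at most 0.12 in WT leaf at 0 µM and 0.32, 1.12 and 0 at 200 µM (log2 change 5.64 and 5.70, SE 0.25). EXPA7 had 39.3, 38.4 and 62.2 FPKM in WT root at 0 µM and 49.6, 58.3 and 30.6 at 200 µM, against at most 0.12 in WT leaf at 0 µM and 0.10, 1.30 and 0.19 at 200 µM (5.48 and 4.98, SE 0.25). Root and leaf did not overlap for either root hair expansin. Neither was called in a Pi response of root: the log2 change of EXPA7 was -0.07 in KO, 0.05 in OE and 0.03 in WT, and that of EXPA18 was 0.07 in KO, -0.16 in OE and -0.50 in WT (adjusted p = 0.273 for the last).

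EXPB2, a beta-expansin, was listed at 0 in the 3 WT leaf libraries at 0 µM, with 48.2, 103 and 93.3 FPKM in WT root (log2 change 6.29 at 0 µM and 5.32 at 200 µM, SE 0.25). EXPA17, known from tissue over emerging lateral roots, was also listed at 0 in WT leaf at 0 µM, with 41.3, 57.8 and 47.6 FPKM in WT root (5.63 and 5.20, SE 0.27). EXPA15 averaged 151 ± 21.4 FPKM in WT root and 2.69 ± 0.647 in WT leaf at 0 µM (5.37, and 4.98 at 200 µM, SE 0.30). The adjusted p of these 5 genes lay at or under 4.51e-15 at both Pi levels (limma, Benjamini-Hochberg). Of these, EXPA18, EXPB2, EXPA17 and EXPA7 averaged under 1 FPKM in leaf and passed the filter through root alone. Their small p is therefore no separate support for the direction.

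WT leaf replicate 2 at 200 µM held more reads of 4 root expansins than any other leaf library. It had 13 reads of EXPA7, 14 of EXPA17, 11 of EXPA18 and 10 of EXPB2, where no other leaf library had more than 3 reads of any of them. It also had 28 reads of the endodermis gene CASP1, against 38 in KO leaf replicate 1 at 200 µM. The endodermis markers summed to 6.91 FPKM there and to 6.87 FPKM in KO leaf replicate 1 at 200 µM, in which CASP1 was the 1 endodermis marker above 0 and EXPA14 had 30 reads (3.71 FPKM). The part of root RNA in the leaf values of these expansins was not tested.

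Toward leaf, the 5 largest differences at 200 µM belonged to EXPA5, EXPA8, EXPA16, EXLA1 and EXPA11, and at 0 µM to EXPA5, EXPA8, EXPA16, EXPA10 and EXPA1. EXPA5, known from shoot and stem growth, averaged 0.747 ± 0.197 FPKM in WT root and 73.8 ± 40.9 in WT leaf at 0 µM (log2 change -5.29) and 0.347 ± 0.424 against 74.0 ± 17.7 at 200 µM (-5.82, SE 0.39). EXPA8 averaged 5.19 ± 0.493 FPKM in WT root and 209.9 ± 73.5 in WT leaf at 0 µM (-5.04), and 5.28 ± 2.42 against 154 ± 47.8 at 200 µM (-4.66, SE 0.37). EXPA16 averaged 0.293 ± 0.508 FPKM in WT root and 12.8 ± 6.99 in WT leaf at 0 µM (-3.36). Both EXPA5 and EXPA16 averaged under 1 FPKM in root and passed the filter through leaf alone. EXPA6 and EXLA2 were called in neither direction at either Pi level, with EXPA6 at 68.0 ± 2.29 in WT root against 74.7 ± 26.5 in WT leaf at 0 µM. A lower level in an organ cannot be told apart here from fewer cells of a type that uses the gene.

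**Figure D2:**
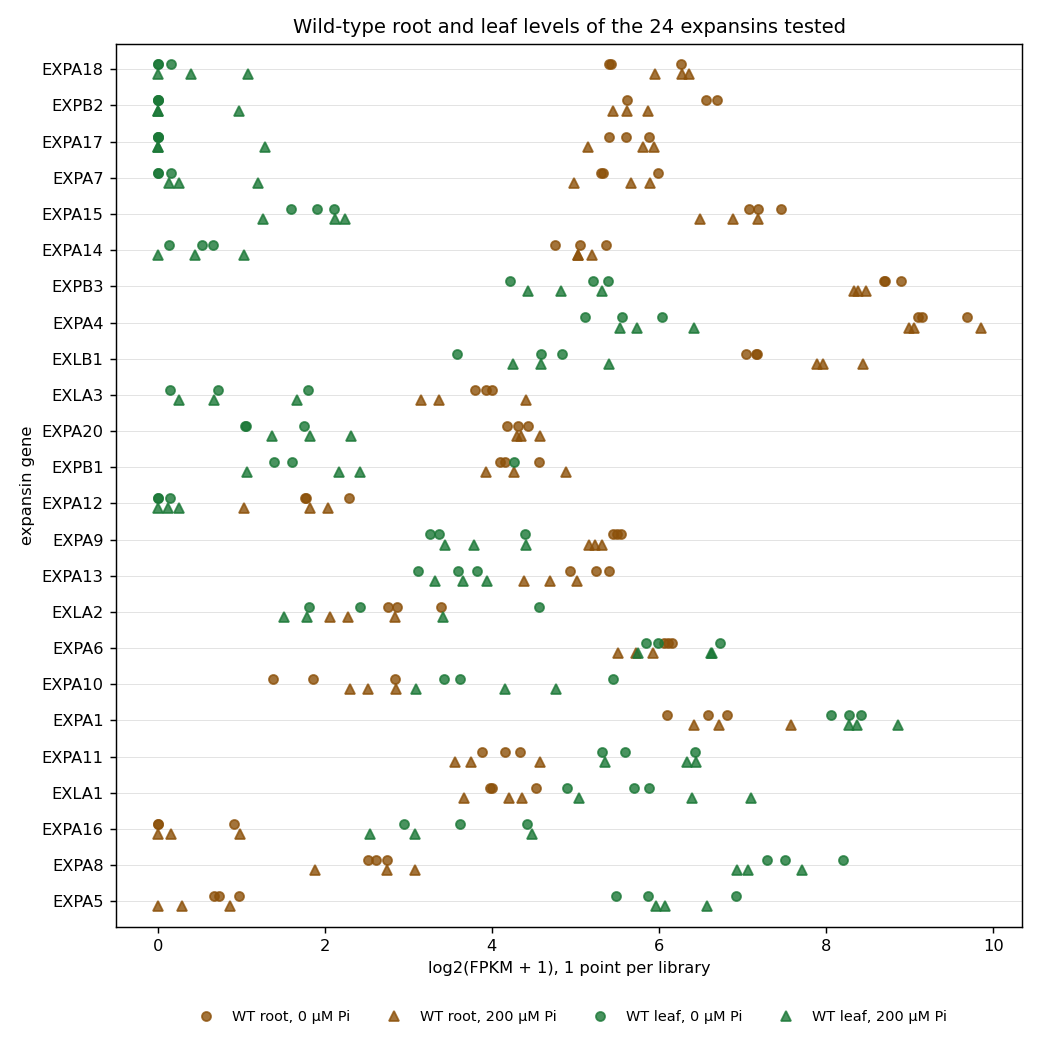
Levels of the 24 expansins tested in WT root (brown) and WT leaf (green), with 1 point per library on a log2(FPKM + 1) axis, circles for 0 µM and triangles for 200 µM Pi, sorted by the log2 change at 200 µM. The root and leaf points of EXPA18, EXPB2, EXPA17 and EXPA7 stand furthest apart at the top, those of EXPA6 and EXLA2 overlap, and EXPA5 and EXPA8 lie on the leaf side at the bottom.

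In leaf, EXLA1 was the 1 expansin called in a Pi response at 24 h, and this was in OE. EXLA1 (AT3G45970) had 49.4, 38.2 and 25.0 FPKM in KO leaf at 0 µM and 24.9, 6.97 and 3.18 at 200 µM. In OE leaf it had 76.5, 152 and 127 FPKM at 0 µM and 8.75, 9.15 and 5.31 at 200 µM. In WT leaf it had 28.8, 58.1 and 51.1 FPKM at 0 µM and 31.9, 136 and 83.2 at 200 µM. The 0 µM libraries lay above the 200 µM libraries in OE. They did so narrowly in KO, where the lowest at 0 µM was 24.96 and the highest at 200 µM was 24.92 FPKM, and the WT groups overlapped.

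EXLA1 rose in OE leaf at 0 µM against 200 µM, with a log2 change of 3.75 (SE 0.56, adjusted p = 0.00455, limma) and means of 119 ± 38.6 against 7.74 ± 2.11 FPKM. It was the 1 member of 17 called in that comparison, where 0.801% of all genes were called, and 3 members had an unadjusted p under 0.05, against 8.45% of all genes. This call held in each of 12 alternative settings, with adjusted p between 0.000666 and 0.0381. The authors' deposited table gives a ratio of 15.32 (0 µM over 200 µM) and an adjusted p of 1.28e-33 for the same contrast. In KO leaf the log2 change of EXLA1 was 1.96 (SE 0.56, adjusted p = 0.116), and in WT leaf it was -0.68.

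**Figure D3:**
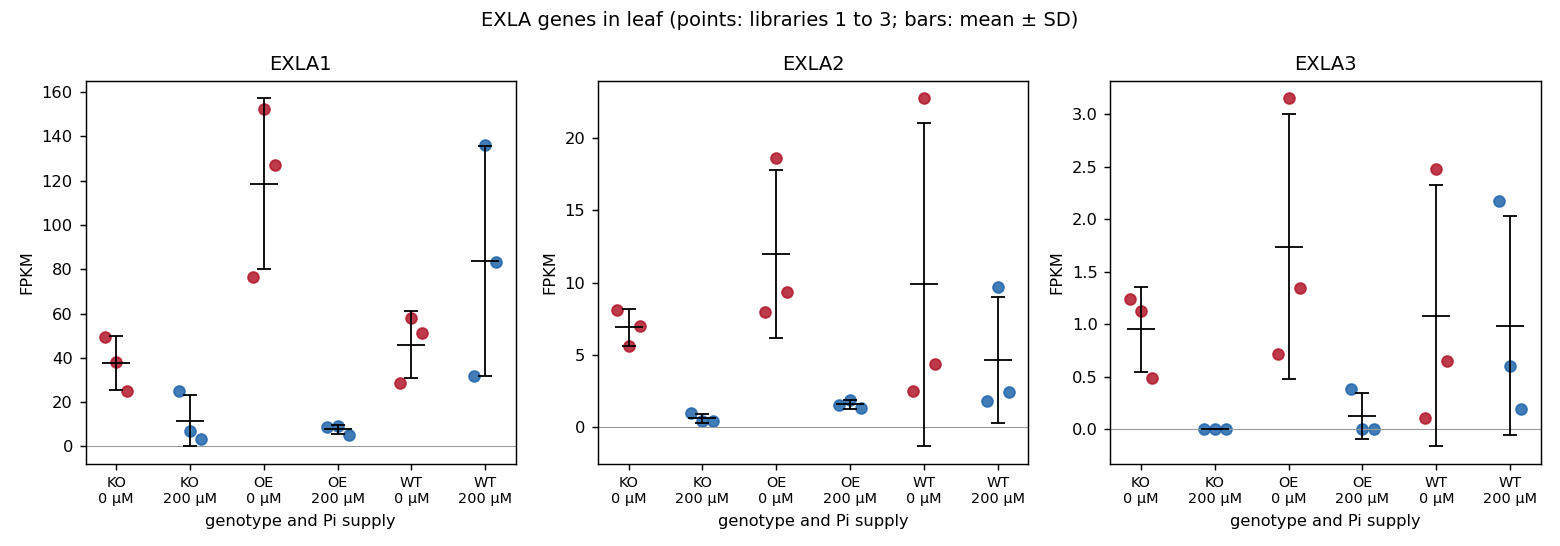
FPKM of EXLA1, EXLA2 and EXLA3 in the 6 leaf groups, with 1 point per library (red 0 µM, blue 200 µM Pi) and black bars for mean ± SD (n = 3). In OE and KO the 0 µM points lie above the 200 µM points for EXLA1 and EXLA2, while in WT the points of the Pi levels overlap.

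The difference of the Pi response of OE from that of WT in leaf was 4.43 for EXLA1 (SE 0.80, adjusted p = 0.0230, limma). It was the 1 member of 17 called there, against 0.352% of all genes, and 2 members had an unadjusted p under 0.05, against 8.24% of all genes. The call was lost in 9 of 18 alternative settings, among them without any filter on low values (adjusted p = 0.0543) and without each of 7 single libraries (up to 0.0845). The highest adjusted p was 0.134, without the libraries with low long genes. For KO the corresponding difference was 2.65 (SE 0.80, adjusted p = 0.245), and 0 of 17 members were called with limma, where 0.127% of all genes were called. At an unadjusted p under 0.05 there were 2 members and 9.26% of all genes.

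Set against WT at the same Pi supply, EXLA1 was lower in both lines at 200 µM. The log2 change was -2.93 in KO (11.7 ± 11.6 against 83.7 ± 52.04 FPKM, SE 0.56, adjusted p = 0.0172) and -3.08 in OE (7.74 ± 2.11 against 83.7 ± 52.04 FPKM, SE 0.56, adjusted p = 0.0168). EXLA1 was the 1 member of 17 called in each, where 0.873% of all genes were called for KO and 0.382% for OE. At an unadjusted p under 0.05 there were 5 members for KO and 4 for OE, against 13.7% and 8.13% of all genes. Both comparisons share the WT libraries, which spread from 31.9 to 136 FPKM. Each call was lost in 6 of 12 settings, with adjusted p up to 0.298 for KO and 0.124 for OE. The highest WT library, replicate 2, is the one with root reads and low long genes, and without it the log2 change was -2.47 for KO (adjusted p = 0.114) and -2.62 for OE (adjusted p = 0.115). Over the single libraries left out, the log2 change lay between -3.65 and -2.33 for KO and between -3.65 and -2.62 for OE. Without KO replicate 3 at 200 µM, EXLA1 was not called for KO, and EXPA1 (1.95, adjusted p = 0.0154) and EXPA8 (1.75, adjusted p = 0.0404) were called as higher. In WT root at 200 µM EXLA1 had 11.7, 17.5 and 19.5 FPKM. The part of root RNA in the 136 FPKM of WT leaf replicate 2 was not tested.

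At 0 µM, EXLA1 averaged 37.5 ± 12.2 FPKM in KO and 119 ± 38.6 in OE, against 46.01 ± 15.3 in WT, with log2 changes of -0.28 and 1.35 (adjusted p = 1.0 for both). All 3 OE libraries lay above all 3 WT libraries, which by itself makes OE higher in all 3 same-numbered pairs. The unadjusted p for OE was 0.0285, and with the replicate number as a block it was 0.0299, with the adjusted p still 1.0. With limma 0 of 17 members were called in KO and 0 in OE, where 0.0364% and 0.0303% of all genes were called. At an unadjusted p under 0.05 there were 0 members in KO and 1 in OE, against 2.6% and 3.57% of all genes.

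EXLA2 (AT4G38400), known from responses to a fungal pathogen, had 8.11, 5.59 and 7.03 FPKM in KO leaf at 0 µM and 0.99, 0.46 and 0.44 at 200 µM. In OE leaf it had 7.97, 18.6 and 9.34 FPKM at 0 µM and 1.52, 1.91 and 1.30 at 200 µM. In WT leaf it had 2.52, 22.7 and 4.36 FPKM at 0 µM and 1.85, 9.68 and 2.44 at 200 µM. The Pi groups did not overlap in KO or OE and did in WT, where replicate 2 was the high library at both Pi levels. The log2 change was 2.28 in KO (SE 0.57, adjusted p = 0.0688) and 2.25 in OE (SE 0.57, adjusted p = 0.0904), and neither was called. In KO leaf without replicate 1 at 200 µM, EXLA1 was called (2.69, adjusted p = 0.0176), and without replicate 3 EXPA1 was called as lower (-1.56, adjusted p = 0.0388). The KO value of EXLA2 passed the threshold with a pseudocount of 0.1, with the replicate number as a block, with the libraries of the comparison alone and without the libraries with low long genes. The authors' deposited table gives an adjusted p under 0.05 for EXLA2 in both KO and OE leaf.

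EXLA3 (AT3G45960), which lies 2012 bases from EXLA1 on chromosome 3, was below the leaf filter and was not tested there. It had 1.24, 1.13 and 0.49 FPKM in KO leaf at 0 µM and was listed at 0 in all 3 libraries at 200 µM. OE leaf had 0.72, 3.15 and 1.34 FPKM at 0 µM and 0.38, 0 and 0 at 200 µM. WT leaf had 0.11, 2.48 and 0.65 FPKM at 0 µM and 2.17, 0.60 and 0.19 at 200 µM, so the 2 Pi groups overlapped in WT and in neither line. EXLA3 had at most 23 reads in a leaf library, so the separation in the lines rests on few reads. The share of all genes with such a separation was not counted. EXLA1 and EXLA3 share 5.3% and 5.4% of their 31-base words, and reads of the shared stretches are uncertain.

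The promoters of EXLA1 and EXLA2 are shown because these are the 2 members of the family with the largest Pi responses in leaf. Capitals mark TATGACGTGAC, the longest word the 2 windows share on the gene's strand. The window of EXLA1 lies at chr3:16895866-16896165 on the plus strand and that of EXLA2 at chr4:17979741-17980040 on the minus strand, both of 300 bases before the RefSeq gene start in TAIR10.1.
EXLA1: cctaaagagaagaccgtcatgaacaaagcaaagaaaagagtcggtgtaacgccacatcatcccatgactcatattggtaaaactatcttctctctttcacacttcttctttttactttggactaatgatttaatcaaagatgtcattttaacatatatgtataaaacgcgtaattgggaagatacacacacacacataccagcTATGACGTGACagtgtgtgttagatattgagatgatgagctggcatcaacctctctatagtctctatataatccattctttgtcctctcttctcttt
EXLA2: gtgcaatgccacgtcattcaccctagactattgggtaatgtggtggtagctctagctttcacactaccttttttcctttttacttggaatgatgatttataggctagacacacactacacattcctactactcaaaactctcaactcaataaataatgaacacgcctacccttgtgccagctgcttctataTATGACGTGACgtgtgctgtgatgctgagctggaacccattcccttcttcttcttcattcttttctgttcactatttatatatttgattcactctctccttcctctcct

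The shared word of 11 bases began 97 bases before the start of EXLA1 and 109 bases before that of EXLA2, and searched on both strands it was in these 2 and no other of the 27443 promoters. It was chosen by comparing the 2 sequences, so its rarity elsewhere follows in part from how it was found. EXLA1 and EXLA3 share a word of 13 bases, TTAGATATTGAGA, which 4 promoters hold (0.0146%), and EXLA2 and EXLA3 a word of 9 bases. The function of these words was not tested.

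The 2 most abundant leaf alpha-expansins averaged higher in both lines than in WT at 200 µM, without passing the test. EXPA1 (AT1G69530) had 269, 612 and 639 FPKM in KO leaf at 0 µM and 1809, 1078 and 490.2 at 200 µM. In OE leaf it had 399.5, 486 and 639.6 FPKM at 0 µM and 766, 890.4 and 926 at 200 µM. In WT leaf it had 341, 265 and 309 FPKM at 0 µM and 309, 330.1 and 464 at 200 µM. All 3 libraries of each line lay above WT at 200 µM. The log2 change against WT at 200 µM was 1.44 in KO (SE 0.38, adjusted p = 0.0954) and 1.24 in OE (SE 0.38, adjusted p = 0.232), and the OE value was called with the libraries of the comparison alone.

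EXPA8 (AT2G40610) had 139.9, 277 and 204 FPKM in KO leaf at 0 µM and 727, 351 and 184 at 200 µM. In OE leaf it had 131, 254 and 194 FPKM at 0 µM and 336, 362 and 473 at 200 µM. In WT leaf it had 181, 294 and 155 FPKM at 0 µM and 121, 132 and 209 at 200 µM. Its groups did not overlap between OE and WT at 200 µM (log2 change 1.36, SE 0.41, adjusted p = 0.207) and did between KO and WT (1.27, adjusted p = 0.175). Within OE its Pi response was -1.05 (SE 0.41, adjusted p = 0.402), and the authors' deposited table gives an adjusted p under 0.05 for EXPA1 and EXPA8 in OE leaf. KO leaf replicate 1 at 200 µM, the library with the most genes at 0, was the highest of all leaf libraries for EXPA1, EXPA8 and EXPA4.

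The other abundant leaf members showed no such order by group. EXPA6 had 84.8, 95.8 and 81.5 FPKM in KO, 60.9, 158 and 111 in OE and 62.4, 105 and 56.6 in WT leaf at 0 µM. At 200 µM it had 80.6, 111 and 55.2 in KO, 111, 96.9 and 97.9 in OE and 53.0, 97.8 and 98.4 in WT leaf. EXPA5 had 71.4, 85.3 and 78.6 FPKM in KO, 52.1, 126 and 102 in OE and 43.6, 120.3 and 57.4 in WT leaf at 0 µM. The groups of both genes overlapped.

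At 200 µM EXPA5 had 126, 59.5 and 44.0 FPKM in KO, 58.4, 67.0 and 73.5 in OE and 61.6, 66.2 and 94.2 in WT leaf. EXPA11 had 64.7, 79.6 and 43.2 FPKM in KO, 44.2, 154 and 87.2 in OE and 38.9, 84.99 and 47.4 in WT leaf at 0 µM. At 200 µM it had 66.9, 78.1 and 38.8 in KO, 81.2, 64.0 and 73.0 in OE and 39.9, 79.5 and 86.1 in WT leaf. In OE and in WT at 0 µM, replicate 2 was the highest library for some of the 17 members tested. These were EXPA5, EXPA6, EXPA8, EXPA10, EXPA11, EXPA13, EXPB1, EXPB3, EXLA1 and EXLA2. Over all tested genes, same-numbered libraries of these groups deviated together (correlations 0.723, 0.54 and 0.174). Replicate 1 of each read low for long genes (-1.04 in OE and -0.88 in WT). The share of all genes with the same order was not counted.

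Over the 17 members tested in leaf, the median Pi response was 0.04 in KO (0 called with limma, against 1.1% of all genes), 0.18 in OE and -0.13 in WT. In WT leaf 0 members were called with limma, against 0.00606% of all genes. At an unadjusted p under 0.05 there were 3 members in KO and 0 in WT, against 14.6% and 6.22% of all genes. The authors' deposited table gives an adjusted p under 0.05 for 1 member in KO leaf, 4 in OE leaf and 0 in WT leaf. Over all genes of that table the shares with such a p were 2.24%, 1.91% and 0.109%, in the same order. The medians over all genes were 0.15 in KO, 0.01 in OE and -0.01 in WT. Rescaling moved the all-gene median of KO leaf to 0.0056. When changes were simulated for KO leaf, 37% of those of 2-fold and 81% of those of 4-fold were found, so smaller changes were often not detectable with these libraries.

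In root, EXLB1 (AT4G17030), the single expansin-like B gene and the third most abundant member there, was called in more Pi responses than any other member. It had 128, 110.3 and 111 FPKM in KO root at 0 µM and 283, 195 and 235 at 200 µM. In OE root it had 129.6, 95.3 and 110.2 FPKM at 0 µM and 181, 139.8 and 144 at 200 µM. In WT root it had 144, 142 and 131 FPKM at 0 µM and 236, 249 and 346 at 200 µM. The 0 µM libraries lay below the 200 µM libraries in all 3 genotypes, and the WT groups were furthest apart.

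EXLB1 fell by 1.01 on the log2 scale in KO root (117 ± 10.13 against 238 ± 43.8 FPKM, SE 0.18, adjusted p = 0.00355) and by 0.97 in WT root (139 ± 7.07 against 277 ± 60.2 FPKM, SE 0.18, adjusted p = 0.0114). In OE root its log2 change was -0.47 (112 ± 17.2 against 155 ± 22.8 FPKM, SE 0.18, adjusted p = 0.622). The KO call held in each of 12 settings, with adjusted p between 0.00235 and 0.0296. The WT call was lost in 4 of 12, with the libraries of the comparison alone (adjusted p = 0.206) and without WT replicate 2 or 3 at 0 µM or replicate 3 at 200 µM (0.0682, 0.0686 and 0.0558). The difference of the OE from the WT response was 0.50 (SE 0.25, adjusted p = 0.916). At 200 µM EXLB1 had 155 ± 22.8 FPKM in OE root against 277 ± 60.2 in WT root (log2 change -0.82, SE 0.18, adjusted p = 0.194).

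EXLB1 was the 1 member of 22 called in WT root, where 1.96% of all genes were called, and 4 members had an unadjusted p under 0.05, against 20.1% of all genes. Over all genes 213 rose and 163 fell there, and with median-of-ratios scaling, which moved the all-gene median to -0.003 as against 0.13, 77 rose and 265 fell. The change of EXLB1 with that scaling was -1.12 (adjusted p = 0.00523). The authors' deposited table gives EXLB1 ratios of 0.49 in KO root and 0.50 in WT root, with adjusted p of 1.18e-07 and 0.00143. In OE root 0 of 22 members were called with limma and 3 had an unadjusted p under 0.05, where 0.235% of all genes were called and 5.93% had an unadjusted p under 0.05. The authors' deposited table gives an adjusted p under 0.05 there for EXPA1 and EXLA1, and for 0.732% of all its genes.

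KO root had the most members called, 4 of 22, against 3.53% of all genes. EXLB1 fell there, and EXPB2, EXPA12 and EXPA14 rose, where 1.27% of all genes rose and 2.26% fell. Of the 22 members, 17 had a change above 0, with a median of 0.27 against 0.09 for all genes, and 11 had an unadjusted p under 0.05, of which 10 were above 0. Over all genes 19.7% had an unadjusted p under 0.05. Leaving out single libraries gave between 1 and 4 calls.

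**Figure D4:**
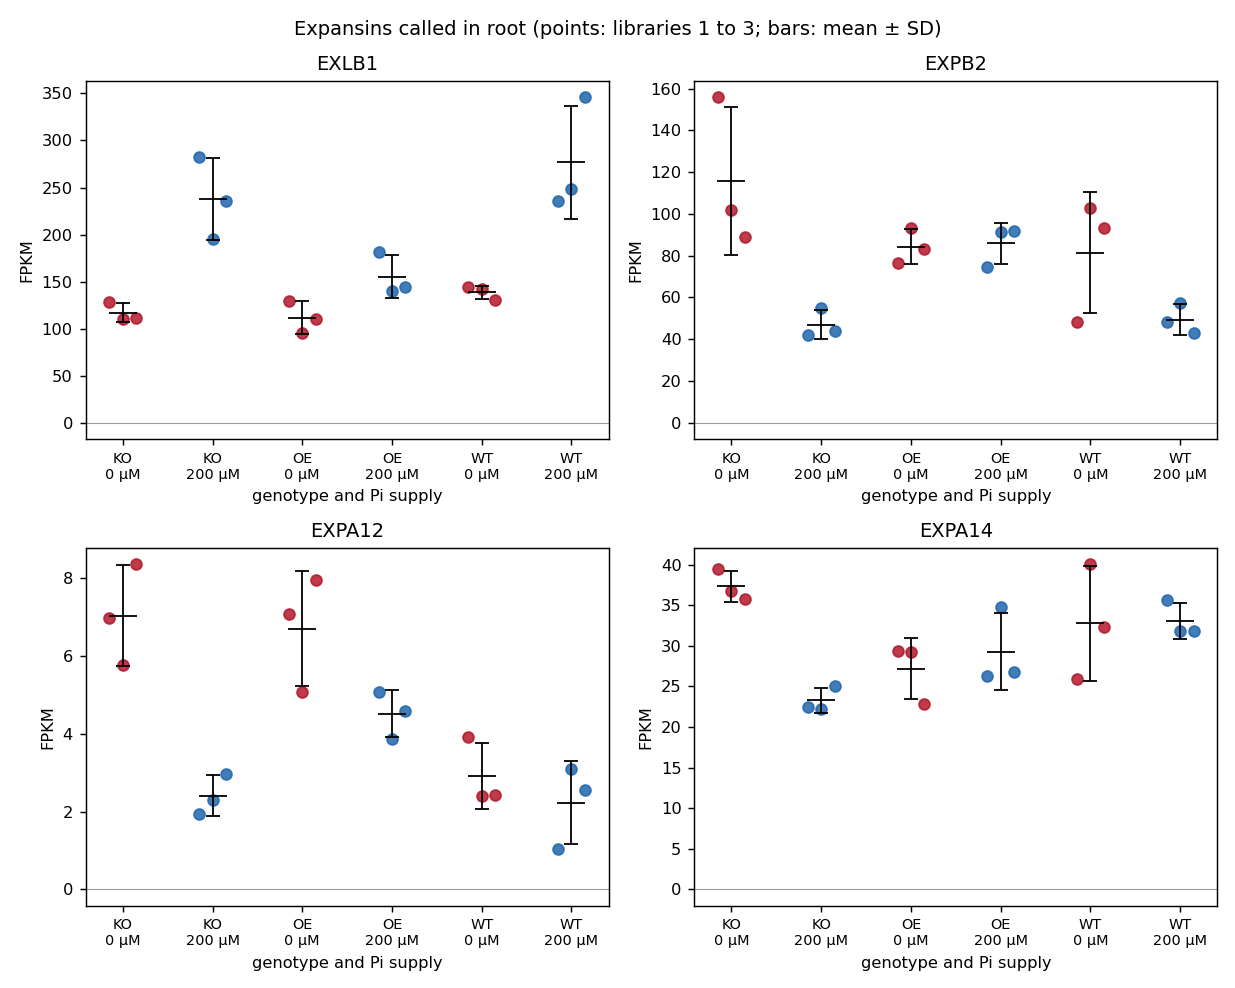
FPKM of EXLB1, EXPB2, EXPA12 and EXPA14 in the 6 root groups, with 1 point per library (red 0 µM, blue 200 µM Pi) and black bars for mean ± SD (n = 3). The 0 µM points of EXLB1 lie below the 200 µM points in each genotype, and those of EXPB2, EXPA12 and EXPA14 lie above them in KO.

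EXPB2 (AT1G65680) had 156, 102 and 89.0 FPKM in KO root at 0 µM and 41.9, 54.9 and 43.9 at 200 µM. In OE root it had 76.4, 93.3 and 83.3 FPKM at 0 µM and 74.4, 91.4 and 91.8 at 200 µM. In WT root it had 48.2, 103 and 93.3 FPKM at 0 µM and 48.1, 57.3 and 42.9 at 200 µM. The Pi groups were separate in KO and overlapped in OE and WT. The log2 change in KO was 1.25 (SE 0.25, adjusted p = 0.00822). Without KO replicate 1 at 0 µM, its highest library, the adjusted p was 0.0539. In WT the log2 change was 0.65 (SE 0.25, adjusted p = 0.154).

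EXPA12 (AT3G15370) had 6.97, 5.77 and 8.37 FPKM in KO root at 0 µM and 1.95, 2.30 and 2.98 at 200 µM. In OE root it had 7.09, 5.08 and 7.95 FPKM at 0 µM and 5.08, 3.88 and 4.60 at 200 µM. In WT root it had 3.91, 2.41 and 2.43 FPKM at 0 µM and 1.05, 3.10 and 2.55 at 200 µM. The KO groups were separate, the OE groups met at 5.08 FPKM, and the WT groups overlapped. The log2 change in KO was 1.24 (SE 0.27, adjusted p = 0.0159), and the call was lost without KO replicate 1 or 3 at 0 µM or replicate 1 or 2 at 200 µM, with adjusted p up to 0.0752. EXPA12 is a low member, with at most 55 reads in a root library.

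EXPA14 (AT5G56320), known as a target of a lateral root LBD factor, had 39.5, 36.7 and 35.8 FPKM in KO root at 0 µM and 22.5, 22.2 and 25.1 at 200 µM. In OE root it had 29.4, 29.3 and 22.8 FPKM at 0 µM and 26.3, 34.7 and 26.8 at 200 µM. In WT root it had 25.95, 40.1 and 32.3 FPKM at 0 µM and 35.6, 31.8 and 31.8 at 200 µM. The KO groups were separate, with the 200 µM libraries below all others except 1 OE library at 0 µM. The log2 change in KO was 0.66 (SE 0.17, adjusted p = 0.0392), and the call was lost in 9 of 12 settings, including each loss of 1 library (up to 0.125) and the replicate block (0.0577).

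In the authors' deposited table, which runs 0 µM over 200 µM in these root contrasts, EXPB2 has a ratio of 2.46 and adjusted p of 9.52e-06 in KO root. EXPA12 has a ratio of 2.92 and adjusted p of 0.0571 there, and EXPA14 a ratio of 1.61 and adjusted p of 0.0974. That table also gives an adjusted p under 0.05 for EXPA4 in KO root. EXPA4 had 811, 865 and 966 FPKM in KO, 626, 632 and 604 in OE and 547, 825 and 564 in WT root at 0 µM. At 200 µM it had 585, 575 and 639 in KO, 699, 754 and 720.1 in OE and 509, 530.2 and 925 in WT root. The Pi groups of EXPA4 were separate in KO, with 0 µM higher, and in OE, with 0 µM lower, and overlapped in WT. Its log2 change was 0.55 in KO (SE 0.20, adjusted p = 0.142) and -0.22 in OE, and neither was called.

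The EXLA genes had log2 changes of at most 0.99 with Pi in root, and none was called there with all libraries. Without KO replicate 2 at 0 µM, EXLA1 was called as higher in KO root (1.12, adjusted p = 0.0205, limma). The authors' deposited table gives an adjusted p under 0.05 for EXLA1 in OE root. EXLA1 averaged 19.3 ± 8.18 FPKM in KO root at 0 µM and 9.69 ± 0.783 at 200 µM (log2 change 0.85, adjusted p = 0.0673), and 26.2 ± 2.80 against 12.7 ± 1.09 in OE root (0.99, SE 0.25, adjusted p = 0.184). In WT root it averaged 17.3 ± 4.16 against 16.2 ± 4.04 FPKM. EXLA2 and EXLA3 had log2 changes of 0.87 and 0.88 in KO root (adjusted p = 0.197 and 0.146). The mean of each of the 3 genes was higher at 0 µM than at 200 µM in each genotype.

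The remaining abundant root members were called in no comparison of Pi levels or genotypes in root. EXPB3 had 476, 515 and 706 FPKM in KO, 487, 492 and 479 in OE and 476, 411 and 416 in WT root at 0 µM. At 200 µM it had 408, 363 and 487 in KO, 569, 602 and 478 in OE and 333, 320.2 and 354 in WT root. EXPB3 was higher in all OE than in all WT libraries at 200 µM (log2 change 0.70, SE 0.16), with adjusted p = 0.194. All KO libraries also lay above all WT libraries at 200 µM, and all OE libraries above all WT libraries at 0 µM. Within WT, the 0 µM libraries lay above the 200 µM libraries, and the Pi groups of KO and of OE overlapped.

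EXPA15 had 141, 150.0 and 183 FPKM in KO, 121, 154 and 119.6 in OE and 144, 175 and 134 in WT root at 0 µM. At 200 µM it had 113, 125 and 158 in KO, 116, 138 and 143 in OE and 117, 144 and 88.6 in WT root. Its groups overlapped in every Pi response. EXPA1 had 102, 78.8 and 150.1 FPKM in KO, 81.8, 74.3 and 103 in OE and 95.4, 112 and 67.6 in WT root at 0 µM. At 200 µM it had 106, 88.3 and 119 in KO, 123, 153 and 143 in OE and 84.8, 104 and 191 in WT root. Its Pi groups were separate in OE only (log2 change -0.70, SE 0.27, adjusted p = 0.665). The 11 other members tested in root averaged between 4.49 and 74.3 FPKM over the 18 libraries, and none was called in a Pi response.

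**Figure D5:**
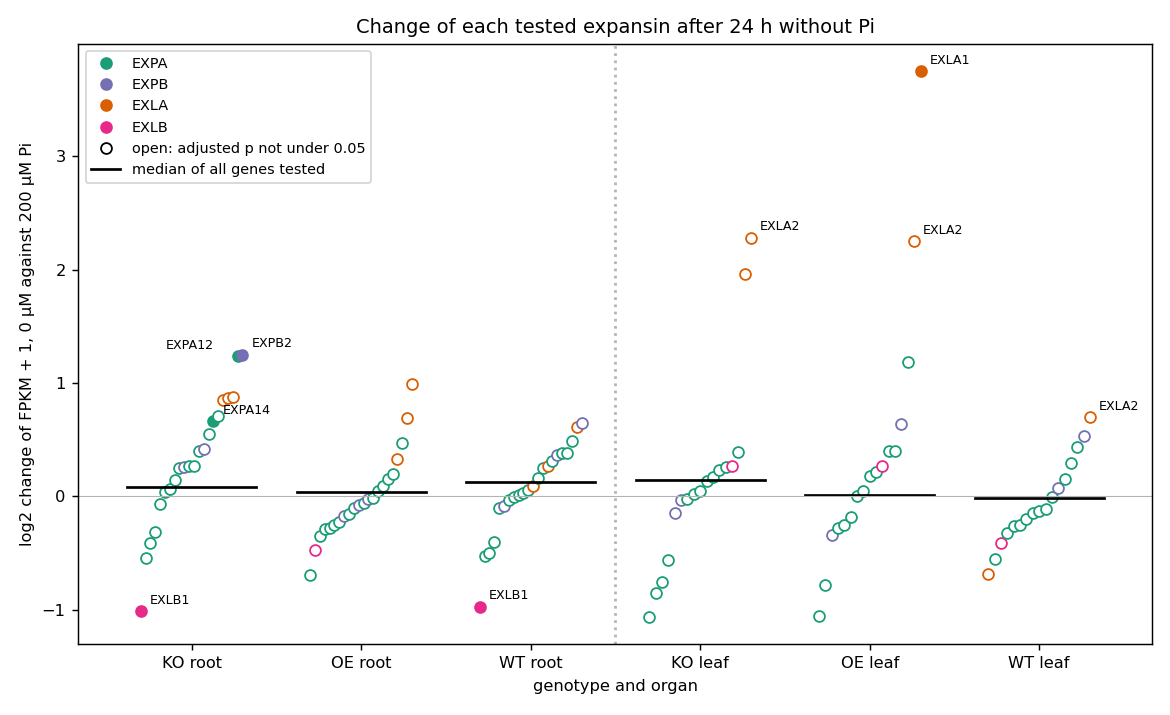
Log2 change of FPKM + 1 at 0 µM against 200 µM Pi for each expansin tested (points coloured by subfamily) in the 6 combinations of genotype and organ, with filled points for adjusted p under 0.05 and a black line for the median of all genes. EXLA1 stands highest in OE leaf at 3.75, and EXLB1 lies lowest in KO root at -1.01 and in WT root at -0.97.

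Between genotypes in root, with limma, 0 of 22 members were called in any of the 4 comparisons with WT. For KO, 6 members had an unadjusted p under 0.05 at 0 µM and 3 at 200 µM, where 0.0522% and 0.0313% of all genes were called and 12.2% and 13.1% had such a p. For OE, 3 members had an unadjusted p under 0.05 at 0 µM and 5 at 200 µM, where 0.0678% and 0.0417% of all genes were called and 7.13% and 12.3% had such a p. EXPA12 had the largest change at 0 µM in both lines, at 7.04 ± 1.30 FPKM in KO and 6.71 ± 1.47 in OE, against 2.92 ± 0.860 in WT (log2 change 1.05 and 0.98, adjusted p = 0.154 and 0.431). The lines share the WT libraries, so these values are not independent.

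The differences of the KO and OE responses from the WT response in root were called for 0 of 22 members, with 3 and 4 at an unadjusted p under 0.05. Over all genes 0.0% were called in either, with 2245 (11.7%) and 923 (4.82%) at an unadjusted p under 0.05. EXPB2, EXPA12 and EXPA14 are therefore not shown to respond differently in KO than in WT. In simulated data for the KO difference, 11% of 2-fold and 75% of 4-fold differences were recovered.

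Other genes of wall growth were counted in the same fits. Xyloglucan endotransglucosylases (XTH), which cut and rejoin the xyloglucan that ties cellulose fibrils, numbered 29, of which 15 were tested in leaf and 23 in root. XTH24 was lower in both lines than in WT leaf at 200 µM, at 60.4 ± 37.6 FPKM in KO and 55.9 ± 13.6 in OE against 434 ± 78.4 in WT (log2 change -3.11 and -2.95, adjusted p = 0.00169 and 0.00286). XTH30 was also lower in KO there (-1.48, adjusted p = 0.0479), a call lost in 8 of 12 settings, with adjusted p up to 0.541. The XTH24 call was kept in 12 of 12 settings in OE and 11 of 12 in KO. In KO it was lost with the libraries of the comparison alone (adjusted p = 0.162, limma). Of the 15 XTH genes, 2 were called in KO and 1 in OE, all lower, where 0.873% and 0.382% of all genes were called. The median over the 15 XTH genes was -1.49 in KO and -1.30 in OE, against -0.10 and -0.0018 for all genes. Both lines were set against the same WT libraries, so these values are not independent.

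In the leaf Pi response, XTH30 rose in KO (1.94, adjusted p = 0.00667) and TCH4, a touch-induced XTH, rose in OE (4.83, adjusted p = 0.0159). The TCH4 call was lost without any 1 of 5 single libraries (adjusted p up to 0.0988), and the XTH30 call in 2 of 12 settings (up to 0.0822). In KO root TCH4 rose (1.74, adjusted p = 0.00526) and XTH24 fell by 1.84 on the log2 scale (adjusted p = 0.000693). Of 4 genes of primary wall cellulose synthesis, the subunit genes CESA1 (0.90, adjusted p = 0.0322), CESA3 (0.65, adjusted p = 0.0437) and CESA6 (0.82, adjusted p = 0.0355) rose in WT root at 0 µM against 200 µM, and 0 were called in the other Pi responses with limma. In WT root 1.96% of all genes were called. The calls of CESA1 and CESA6 were lost in 8 of 12 settings and that of CESA3 in 9, among them median-of-ratios scaling (adjusted p = 0.0572, 0.0603 and 0.0932) and the loss of WT replicate 2 at 200 µM (0.0944, 0.0975 and 0.107).

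The 4 genes of that list together had 577.0, 625.1 and 617.6 FPKM in WT root at 0 µM and 500.3, 286.7 and 371.8 at 200 µM. The low libraries, replicates 2 and 3 at 200 µM, are those of WT root in which long genes were lowest (-1.23 and -0.47 on the log2 scale from the middle of the organ). The part of this difference between libraries in the CESA result was not tested.

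The remaining lists of growth and wall acidification genes had 0 members called in any Pi response or line comparison with limma. They were 12 root hair genes, 5 lateral root factors, 3 growth factors and the 2 plasma membrane proton pumps AHA1 and AHA2, which acidify the wall. In leaf 1 of the root hair genes and 2 of the lateral root factors were tested, and in root 11 and 5. Between 0.00606% and 3.53% of all genes were called in the Pi responses, and between 0.0303% and 0.873% in the line comparisons. With such shares, 0 calls among so few genes is near the background. The median Pi response of the 11 root hair genes was 0.42 in KO, 0.13 in OE and 0.35 in WT root. It was -0.05 in KO, -0.07 in OE and 0.25 in WT for the pumps, and -0.10, 0.02 and 0.37 in the same genotypes for the lateral root factors. In WT root against WT leaf all 11 tested root hair genes were higher in root at both Pi levels, as were both pumps and all 5 lateral root factors. Only 1 of these root hair genes and 2 of these factors passed the leaf filter. The others entered through root, which largely set their direction.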

How the data were processed

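The deposited table holds FPKM per gene and library, which the authors computed from strand-specific poly(A) RNA-seq; the unit is read from the values, since FPKM times coding length in kb sums to 974165 to 1016893 per library. Low values were whole multiples of what 1 read is worth, within 0.1 read, in 99.9% to 100.0% of cases, and depth was recovered from them. The table also gives the authors' ratio and p-value for each Pi contrast, per the file headers, and these deposited values are quoted only where named. Trimmomatic, HISAT2 2.2.1, DESeq2 and the build TAIR10 are named per the submitters' processing notes; no source used here names the counting tool or its strand setting.

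Log2(FPKM + 1) values were fitted, for genes averaging 1 FPKM or more, with limma 3.58.1 (R 4.3.3, trend over the mean), 1 fit per organ over 6 groups and 1 over all 12 groups for root against leaf. P-values were adjusted by Benjamini-Hochberg over all genes of a comparison. All libraries carry the same batch label. The members and lists were chosen with earlier results of these data known. Per-library values are given for each member called in a Pi response, line comparison or difference of responses, and for the 5 highest of each organ; the organ comparison is given by its counts and the 5 largest differences each way, and lists by counts and at most 2 called genes each way. The 3 CESA genes called in WT root are all named, the third chosen after its values were seen.

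Deviations of same-numbered replicates correlated at over 0.1 in every pair only for OE against WT leaf at 0 µM (0.174 to 0.723). The numbers were therefore not taken as pairing elsewhere. Weaker correlations above 0 in every pair were seen for the Pi response of OE leaf (0.044 to 0.245). The same held for OE against WT root at 0 µM (0.038 to 0.102). Simulated counts with known changes tested the fit. At the size of WT root it recovered 42% of 2-fold and 91% of 4-fold changes. The changed genes were drawn from well above the filter and the libraries independently of each other. Recovery may therefore differ for low members and for libraries that deviate together. Gene names and promoters are from RefSeq on TAIR10.1. Of the members, EXPA20 and EXPA21 overlap genes on the opposite strand within their coding sequence.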

Additional observations from a re-analysis of the deposited data

Results flagged for a closer look

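The Pi response of EXLA1 in leaf differed between OE and WT by 4.43 on the log2 scale (SE 0.80, adjusted p = 0.0230, limma), by a test of the difference between the genotypes. This call was lost in 9 of 18 alternative settings, with adjusted p up to 0.134. Among them was the loss of WT replicate 2 at 200 µM. EXLA1 was higher at 0 µM in all 3 OE libraries than in any OE library at 200 µM, and the WT groups overlapped.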

How the results depend on the processing

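The log2 changes of the 9 called expansin results and of the 10 called results of other wall genes kept their sign in every setting run on them. Counts of expansins called moved by more than 1.5 times in these comparisons. In the Pi response of KO leaf, 1 member, EXLA2, was called in place of 0 with a pseudocount of 0.1, with the replicate block, with the libraries of the comparison alone, and without the libraries with low long genes, an alternative chosen after seeing the data. In the Pi response of OE leaf the count was 2 in place of 1 with the comparison's libraries alone and without the low long gene libraries. For KO against WT leaf at 200 µM it was 0 in place of 1 under both settings. For OE against WT leaf at 200 µM it was 2 with the comparison's libraries alone and 0 without the low long gene libraries. For the difference of the OE from the WT response in leaf it was 0 without a filter and 0 without the low long gene libraries. For the Pi response of WT root it was 0 with the comparison's libraries alone. Smaller moves were also seen. In the Pi response of KO root the count was 3 in place of 4 with median-of-ratios scaling, with the replicate block and with the comparison's libraries alone. For root against leaf at 200 µM it was 23 in place of 22 with that scaling and 21 without the low long gene libraries.

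Leaving out single libraries gave 0 to 1 members in the Pi response of KO leaf, 0 to 2 for KO and 0 to 1 for OE against WT leaf at 200 µM, 0 to 1 for the OE difference in leaf, 0 to 2 in the Pi response of WT root, 1 to 4 in that of KO root, 0 to 1 for OE against WT root at 200 µM, and 21 to 23 and 21 to 22 for root against leaf at 200 and 0 µM. These counts are not always of the same members. For KO against WT leaf at 200 µM, EXLA1 was called as lower, and without KO replicate 3 EXPA1 and EXPA8 were called as higher in its place. In the Pi response of KO leaf, EXLA1 was called as higher without replicate 1 at 200 µM and EXPA1 as lower without replicate 3. In the Pi response of KO root, EXLA1 (1.12, adjusted p = 0.0205) was called as higher in place of EXPA14 without replicate 2 at 0 µM. In WT root, EXPB2 (0.98, adjusted p = 0.0320) joined EXLB1 without replicate 1 at 0 µM, and for OE against WT root at 200 µM EXLB1 (-0.92, adjusted p = 0.0266) was called as lower without WT replicate 1. The replicate block also ended the call of EXPA14 in KO root (adjusted p = 0.0577) and those of CESA1, CESA3 and CESA6 in WT root (0.0598, 0.0743 and 0.0679). It changed no other call of these results beside that of EXLA2 above. The cause of these changes was not tested. Root libraries reach down to 2070000 reads, which limits members at a few FPKM.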
